A study of Mus musculus with 4 samples.

Results

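The 10 genes described here are secreted angiogenic factors and genes known from endothelial cells. They were chosen from the 24346 gene rows of the expression table by a rule that lists their names. The rule uses none of their values, but the list was chosen with earlier results of these data known. The 10 genes comprise 5 ligands (Vegfa, Vegfb, Vegfc, Pgf and Angpt2), 3 receptors (Kdr, Flt1 and Tek) and 2 genes of endothelial cell contacts (Pecam1 and Cdh5). RNA-seq was performed on mouse bone marrow-derived mesenchymal stem/progenitor cells (mBMSCs), which are primary cells that adhere to plastic after the loose marrow cells have been washed away. The question was which transcripts change when ZBP1, a sensor of nucleic acids, is depleted by small interfering RNA (siRNA).

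All cells came from the marrow of wild-type C57BL/6 mice that were 3 months old, and all were transfected with siRNA using Lipofectamine RNAiMAX and harvested 72 h later. The control group, siScr, received a scramble control siRNA (n = 2), and the other group, siZBP1, received siRNA against Zbp1 (n = 2). The study describes a pair of Zbp1 siRNAs, and which of them, or whether both, went into the sequenced cells is not given in the sources used here. No sorting step was described, so the cultures could hold more than 1 cell type. The study's methods speak of duplicated mBMSCs and do not say whether the replicates were separate cultures or animals. The p-values below therefore measure only the spread between these samples.

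Blood vessels grow and are maintained through a small set of secreted factors that act on receptors carried mainly by endothelial cells. VEGF-A and its relatives bind the VEGF receptors KDR, FLT1 and FLT4, while the angiopoietins bind TEK. In bone marrow, stromal cells, osteoblast-lineage cells and macrophages are known sources of the ligands, and the vessels themselves carry the receptors together with PECAM1 and VE-cadherin, the product of Cdh5.

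Values are FPKM, the number of sequenced fragments of a gene scaled for transcript length and for the size of the library, and can be set side by side between genes. The spacing of the low values put the depth near 14000000 and 21000000 fragments in the siScr samples and near 12000000 and 18000000 in the siZBP1 samples. The targeted gene followed the labels. Zbp1 stood at 86.0 and 62.0 FPKM in siScr and at 11.5 and 11.6 FPKM in siZBP1, which was 6.40-fold lower (limma adjusted p = 0.00322, and at most 0.0618 with any 1 sample left out).

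The 10 genes covered a wide range of levels in their means over the 4 samples, and the roles were mixed in that order. Vegfa had the highest mean at 32.8 FPKM and Vegfb followed at 24.3 FPKM, with no overlap between their 4 values. Vegfc came next at 2.99 FPKM, with Kdr at 2.73 FPKM, and these neighbours overlapped. Flt1 stood at 1.48 FPKM, below every value of Kdr and above every value of Angpt2. Angpt2 (0.839 FPKM), Cdh5 (0.792 FPKM), Pgf (0.789 FPKM) and Pecam1 (0.477 FPKM) formed a run in which each gene overlapped the next. Tek was last at 0.0431 FPKM, below every value of Pecam1.

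**Figure D1:**
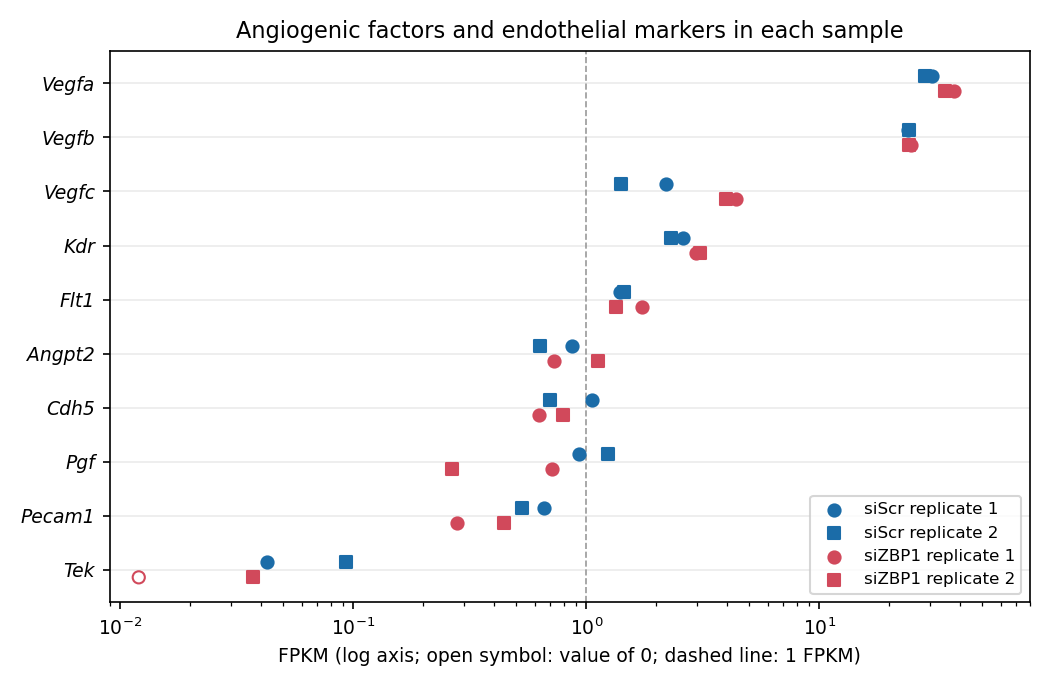
FPKM of the 10 genes in each of the 4 samples, on a log axis, with 1 symbol per sample, the value of 0 for Tek drawn as an open symbol, and a dashed line at 1 FPKM, the mean needed for testing. Vegfa and Vegfb lie above 20 FPKM in every sample, both siZBP1 values of Vegfa and Vegfc lie above both siScr values, and both siZBP1 values of Pgf and Pecam1 lie below.

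Of the 10 genes, 5 had a mean of at least 1 FPKM over the samples and were tested with limma, and the other 5 fell under that filter. Among the tested genes Vegfa and Vegfc rose in siZBP1 and none fell, while Vegfb, Kdr and Flt1 did not pass an adjusted p of 0.05. Over all 11959 genes tested, 13.5% were called higher and 14.8% lower, together 28.3%, against 2 of the 5 here. By the ratio of group means, with no test, 1 of the 10 genes was more than 1.5-fold higher (Vegfc) and 3 were more than 1.5-fold lower (Pgf, Pecam1 and Tek, all under 1 FPKM). Among all 16281 genes that could be given a ratio, 10.7% passed that fold upward and 13.8% downward. Among genes with a mean of at least 1 FPKM these shares were 4.24% and 8.73%, and of the 5 genes here at that level Vegfc passed upward and none passed downward. Both shares were lower than over all genes. Among genes under 1 FPKM, where Pgf, Pecam1 and Tek lie, more than 13.8% therefore passed downward. Leaving out either siZBP1 sample gave far fewer calls across the table than leaving out either siScr sample. With 1 siZBP1 sample, the spread came from the siScr pair alone. The SD of the log2 difference between replicates was 0.563 in siScr and 0.481 in siZBP1, and its part in the lost calls was not tested. Of the calls named below for genes outside the 10, those without a siZBP1 sample were kept in 8 of 44 cases. The median log2 fold change was 0.22 over the 5 tested genes and 0.00 over all tested genes.

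Vegfa, which encodes the main growth factor for vessel sprouting (chr17:46016993-46032369 of mm10, minus strand), was at 30.5 and 28.4 FPKM in siScr and at 37.9 and 34.6 FPKM in siZBP1. Both depleted samples lay above both controls. The means were 29.4 ± 1.46 FPKM and 36.2 ± 2.33 FPKM (SD, n = 2 each), a ratio of 1.23, and the log2 fold change on the log2(FPKM + 1) scale was 0.29 (95% interval 0.11 to 0.47, limma adjusted p = 0.0385). The call was close to the threshold: it was lost with no filter on low genes (limma adjusted p = 0.0537), with no trend in the variance (limma adjusted p = 0.0674), and when any 1 of the 4 samples was left out (limma adjusted p from 0.0794 to 0.194). The values are per gene and do not separate the splice forms of VEGF-A.

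Vegfc, which encodes the ligand of FLT4 and is best known from lymphatic vessels (chr8:54077606-54187096, plus strand), showed the widest difference of the 5 tested genes. It was at 2.19 and 1.40 FPKM in siScr and at 4.40 and 3.96 FPKM in siZBP1, so that the groups were well apart. The means of 1.80 ± 0.559 FPKM and 4.18 ± 0.307 FPKM (SD, n = 2 each) gave a ratio of 2.32, and the log2 fold change was 0.90 (95% interval 0.46 to 1.35, limma adjusted p = 0.0230). These levels corresponded to roughly 76 and 73 fragments in the siScr samples and 125 and 180 in the siZBP1 samples. The call held without either siScr sample and was lost without siZBP1 replicate 1 (limma adjusted p = 0.149) or siZBP1 replicate 2 (limma adjusted p = 0.112). Flt4, the receptor of VEGF-C, was picked out after its values were seen. It was at 0.649 and 0.693 FPKM in siScr and at 0.226 and 0.221 FPKM in siZBP1, under the filter and not tested.

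Vegfb, a VEGF relative that binds FLT1 (chr19:6982473-6987651, minus strand), was nearly level, at 24.0 and 24.2 FPKM in siScr and 24.8 and 24.2 FPKM in siZBP1. The lower siZBP1 value lay just above the higher siScr value. The log2 fold change was 0.02 with a 95% interval from −0.10 to 0.15 (limma adjusted p = 0.731). Among the tested genes of the whole table, 68.4% had groups that did not overlap, against 4 of the 5 tested here, so that separation alone carries little information with 2 samples a group.

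Pgf, which encodes placental growth factor, another ligand of FLT1 (chr12:85166635-85177790, minus strand), was at 0.934 and 1.24 FPKM in siScr and at 0.716 and 0.265 FPKM in siZBP1. Both depleted samples lay below both controls. The means were 1.09 ± 0.218 FPKM and 0.490 ± 0.319 FPKM (SD, n = 2 each), a ratio 2.22-fold lower. Pgf was under the filter on low genes. With the filter set at a mean of 0.1 FPKM it was not called (log2 fold change −0.50, limma adjusted p = 0.122). The levels rested on roughly 27 and 55 fragments in siScr and 17 and 10 in siZBP1.

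Angpt2, which encodes an angiopoietin that modulates TEK signalling (chr8:18690263-18741562, minus strand), was at 0.870 and 0.635 FPKM in siScr and at 0.728 and 1.12 FPKM in siZBP1. The groups overlapped. With the lower filter its limma adjusted p was 0.571. Summed over the 5 ligands, the level was 58.4 and 55.8 FPKM in siScr and 68.5 and 64.1 FPKM in siZBP1, and Vegfa with Vegfb made up most of it.

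Kdr, which encodes the main signalling receptor for VEGF-A (chr5:75932827-75978458, minus strand), was the most highly expressed of the 3 receptors. It was at 2.59 and 2.30 FPKM in siScr and at 2.96 and 3.08 FPKM in siZBP1, with both depleted samples above both controls. The means were 2.45 ± 0.202 FPKM and 3.02 ± 0.0887 FPKM (SD, n = 2 each), the same ratio of 1.23 as for Vegfa. The log2 fold change was 0.22 with a 95% interval from −0.05 to 0.49, and it did not pass the test (limma adjusted p = 0.176).

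Flt1, which encodes the receptor shared by VEGF-A, VEGF-B and placental growth factor and is also made by monocytes and macrophages (chr5:147561604-147726011, minus strand), was at 1.39 and 1.46 FPKM in siScr and at 1.74 and 1.34 FPKM in siZBP1. The groups overlapped, and 1 siZBP1 sample was the highest and the other the lowest of the 4. The log2 fold change was 0.06 with a 95% interval from −0.30 to 0.42 (limma adjusted p = 0.778), and its sign turned without siZBP1 replicate 1. A value per gene cannot separate the membrane form of FLT1 from the soluble form, which binds ligand without signalling.

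Tek, which encodes the angiopoietin receptor (chr4:94739289-94874976, plus strand), was at or near 0 in every sample. It was at 0.0425 and 0.0927 FPKM in siScr and at 0 and 0.0372 FPKM in siZBP1, which corresponded to about 3 and 9 fragments and to 0 and 3 fragments. No difference could be read from so few fragments.

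**Figure D2:**
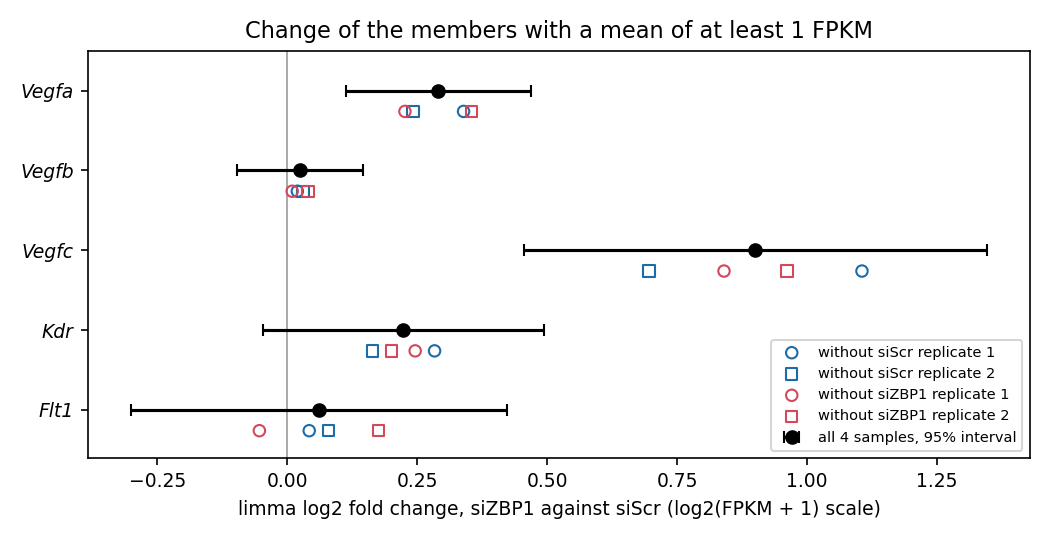
Log2 fold change of the 5 tested genes in siZBP1 against siScr on the log2(FPKM + 1) scale, as the estimate from all 4 samples (filled, with its 95% interval) and as 4 estimates with 1 sample left out (open). The intervals of Vegfa and Vegfc lie above 0, those of Vegfb, Kdr and Flt1 include 0, and of the open symbols only that of Flt1 without siZBP1 replicate 1 lies below 0.

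Pecam1, which encodes an adhesion molecule of endothelial cells that platelets and some leukocytes also carry (chr11:106654217-106750628, minus strand), was at 0.660 and 0.528 FPKM in siScr and at 0.278 and 0.442 FPKM in siZBP1. Both depleted samples were below both controls. The means were 0.594 ± 0.0933 FPKM and 0.360 ± 0.116 FPKM (SD, n = 2 each), a ratio 1.65-fold lower. Pecam1 was under the filter, and with the lower filter it was not called (log2 fold change −0.23, limma adjusted p = 0.203). Of all genes with a mean above 0 and under 1 FPKM, 37.6% had groups that did not overlap, against 3 of the 5 here (Pgf, Pecam1 and Tek).

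Cdh5, which encodes VE-cadherin of endothelial junctions (chr8:104101625-104144511, plus strand), was at 1.05 and 0.698 FPKM in siScr and at 0.624 and 0.794 FPKM in siZBP1. The groups overlapped, and with the lower filter the limma adjusted p was 0.540. Pecam1 and Cdh5 summed to 1.71 and 1.23 FPKM in siScr and to 0.903 and 1.24 FPKM in siZBP1.

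The endothelial part of the gene set was checked against a wider list. A set of 6 defining endothelial genes (Pecam1, Cdh5, Kdr, Tek, Tie1 and Vwf) summed to 8.95 and 9.11 FPKM in siScr and to 8.55 and 8.96 FPKM in siZBP1, and none of the 6 reached 10 FPKM in any sample. Vwf (von Willebrand factor) and Kdr made up most of this sum. Vwf was at 4.36 and 5.41 FPKM in siScr and at 4.63 and 4.48 FPKM in siZBP1. Tie1, which encodes a receptor related to TEK, was at 0.241 and 0.0778 FPKM in siScr and at 0.0625 and 0.115 FPKM in siZBP1. The groups overlapped for both genes, and the near-level sum joined a higher mean of Kdr with lower means of the other 5 in siZBP1. Of 26 further endothelial markers, a list that also holds Vwf, 19 had a mean under 1 FPKM. Cd93, which myeloid cells also express, was the highest of them and rose from 60.4 ± 2.11 to 93.9 ± 2.99 FPKM (log2 fold change 0.63, limma adjusted p = 0.00404). Eng, which encodes a co-receptor for TGF-beta ligands found on endothelial, stromal and myeloid cells, fell from 23.6 ± 2.42 to 18.5 ± 0.743 FPKM (log2 fold change −0.34, limma adjusted p = 0.0460). The call of Eng was lost under 4 of 12 other settings with all samples. Tal1, a transcription factor gene of endothelial and blood cells, was at 3.21 and 4.41 FPKM in siScr and at 5.24 and 5.23 FPKM in siZBP1, and it was not called (log2 fold change 0.39, limma adjusted p = 0.114). S1pr1, a lipid receptor of endothelial and immune cells, was at 39.7 ± 0.322 and 36.7 ± 1.20 FPKM (SD, n = 2 each) and was not called. The defining endothelial genes were thus at low levels in all 4 samples, with Tek at 0 in 1 of them, and the term endothelial markers is used here for what the genes are known for. In bulk RNA, fewer cells of a type and less RNA per cell cannot be told apart.

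The summed markers of other cell types were much higher than the sum of the 6 defining endothelial genes, and some of these markers changed. The 26 further endothelial markers summed to 143 and 144 FPKM in siScr and to 164 and 171 FPKM in siZBP1. Cd93, S1pr1 and Eng, which are not confined to endothelial cells, made up most of that sum. The lists differ in their number of genes, so the sums are a rough guide only. The 15 macrophage markers summed to 7587 and 8549 FPKM in siScr and to 12586 and 11939 FPKM in siZBP1, and none of them was at 0. Lyz2 with the complement genes C1qa, C1qb and C1qc made up most of these sums. Of the 15 markers, 9 rose and none fell, while Adgre1, Ptprc, Fcgr1, Cd14, Ccr2 and Mertk were not called. Adgre1 was at 303 and 279 FPKM in siScr and at 313 and 320 FPKM in siZBP1. Lyz2 (lysozyme) rose from 3230 ± 589 to 5636 ± 332 FPKM (log2 fold change 0.81, limma adjusted p = 0.0191), and its call was lost under quantile normalisation. Mrc1 (the mannose receptor) rose 2.39-fold, from 42.7 ± 8.71 to 102.1 ± 0.792 FPKM (limma adjusted p = 0.00789). The complement genes C1qa (log2 fold change 0.74, limma adjusted p = 0.00360) and C1qb (log2 fold change 0.48, limma adjusted p = 0.00570) rose as well. Macrophages are a known source of Vegfa and Vegfc, and the part of these markers in the rise of Vegfa and Vegfc was not tested.

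The 10 pericyte and mural markers, which belong to the contractile cells around vessels and are shared in part with stromal cells in culture, summed to 968 and 1001 FPKM in siScr and to 195 and 218 FPKM in siZBP1. Acta2 and Tagln made up most of these sums, and 4 of the 10 markers had a mean under 1 FPKM. Among those 4, Rgs5 was at 0.597 and 0.492 FPKM in siScr and at 0.769 and 0.750 FPKM in siZBP1, and Des was at 0.351 and 0.646 FPKM in siScr and at 0.841 and 0.816 FPKM in siZBP1. Both were higher in both siZBP1 samples, opposite to the sum. Abcc9, also among those 4, was lower, at 0.172 and 0.158 FPKM in siScr and at 0.0806 and 0.0587 FPKM in siZBP1. Kcnj8 overlapped, at 0.0294 and 0.0218 FPKM in siScr and at 0 and 0.0250 FPKM in siZBP1. Of the 6 tested, 4 fell and 1 rose. Acta2, which encodes smooth muscle actin, fell from 622.5 ± 12.4 to 119.6 ± 13.0 FPKM (log2 fold change −2.37, limma adjusted p = 0.00155). Tagln, which encodes an actin-binding protein, fell from 308 ± 12.3 to 45.6 ± 5.04 FPKM (log2 fold change −2.74, limma adjusted p = 0.00150). Notch3, which encodes a receptor of mural cells, rose from 1.22 ± 0.0299 to 3.63 ± 0.00569 FPKM (log2 fold change 1.06, limma adjusted p = 0.00583).

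The 10 stromal markers summed to 5490 and 4584 FPKM in siScr and to 3178 and 3218 FPKM in siZBP1, and of the 9 tested 3 fell and 1 rose. Col1a1 and Col1a2 made up most of these sums, and most of the fall in the sum came from Col1a1. Col1a1, which encodes a type I collagen chain, fell (log2 fold change −1.26, limma adjusted p = 0.00480), as did the mesenchymal transcription factor gene Prrx1 (2.05-fold lower, limma adjusted p = 0.00520). Col1a2, the partner chain, was at 1949 ± 202 and 1820 ± 13.2 FPKM (SD, n = 2 each) and was not called. Nt5e, which encodes the ectonucleotidase CD73, rose from 4.11 ± 1.94 to 21.0 ± 0.373 FPKM (log2 fold change 2.16, limma adjusted p = 0.00954). The part of the mural and stromal markers in the values of the 10 genes was likewise not tested.

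**Figure D3:**
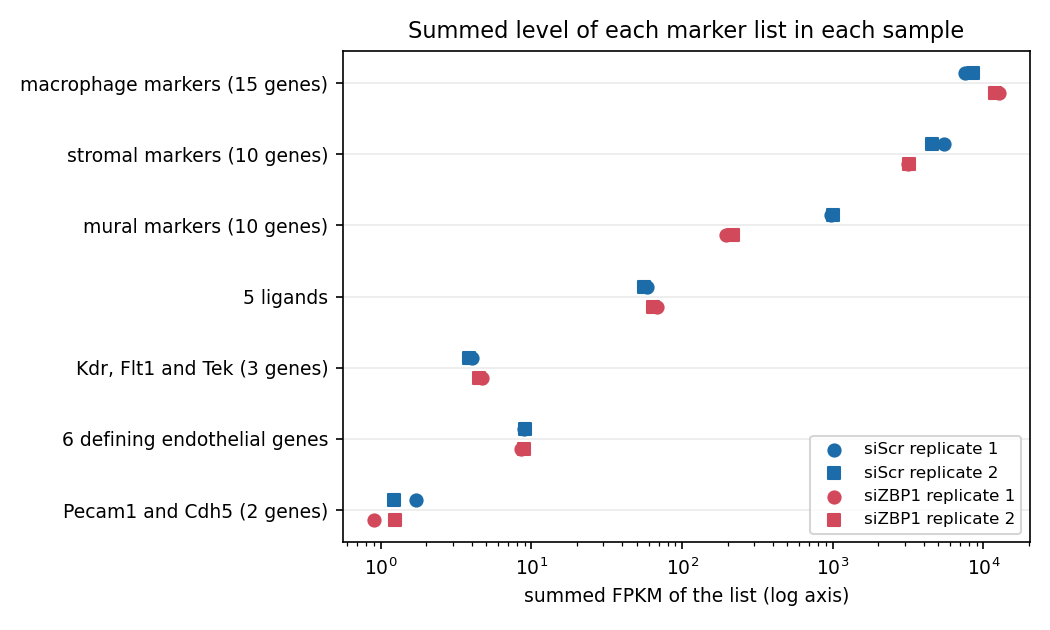
Summed FPKM of the gene sets drawn, in each of the 4 samples, on a log axis, with 1 symbol per sample. The sets are Pecam1 with Cdh5, the 6 defining endothelial genes, the 3 receptors, the 5 ligands, and the mural, stromal and macrophage markers. The further endothelial markers, which sum to between 143 and 171 FPKM, and the remaining lists are not drawn. The defining endothelial genes sum to under 10 FPKM in every sample and differ little in sum between the groups. The macrophage sum (mostly Lyz2, C1qa, C1qb and C1qc) is higher in both siZBP1 samples. The mural sum (mostly Acta2 and Tagln) and the stromal sum (mostly Col1a1 and Col1a2) are lower in both.

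The other genes of the VEGF and angiopoietin pathway did not move as a block. Of 11 listed, 7 were tested, 2 fell and 1 rose. Angptl2, which encodes an angiopoietin-like secreted protein, was at 111.0 and 98.6 FPKM in siScr and at 45.9 and 47.2 FPKM in siZBP1, and it fell (log2 fold change −1.15, limma adjusted p = 0.00286). Angpt4, which encodes an angiopoietin that binds TEK, was at 22.6 and 23.6 FPKM in siScr and at 10.4 and 10.8 FPKM in siZBP1, and it fell (log2 fold change −1.05, limma adjusted p = 0.00264). Both were far above Angpt2 in level in every sample. Angptl4, an angiopoietin-like gene also known from lipid metabolism, rose from 7.48 ± 0.215 to 9.47 ± 0.510 FPKM (log2 fold change 0.30, limma adjusted p = 0.0410), and the call was lost under 3 of 12 other settings with all samples. Nrp2, which encodes a co-receptor for VEGF ligands, was at 156.2 and 154.1 FPKM in siScr and at 147.2 and 146.9 FPKM in siZBP1 and was not called (limma adjusted p = 0.180).

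Of 25 other angiogenic factors and inhibitors, 19 were tested, 7 fell and 1 rose, and the median log2 fold change of those tested was −0.26. Cxcl12, which encodes the chemokine that retains blood cell progenitors in marrow, was at 68.4 and 54.6 FPKM in siScr and at 8.06 and 7.71 FPKM in siZBP1, which was 7.80-fold lower (log2 fold change −2.81, limma adjusted p = 0.00210). Ctgf, which encodes a matrix-associated growth factor, fell from 342 ± 27.0 to 125.8 ± 9.39 FPKM (log2 fold change −1.44, limma adjusted p = 0.00277). Adm, which encodes adrenomedullin, a vasodilator peptide, fell from 6.91 ± 0.738 to 2.05 ± 0.991 FPKM (log2 fold change −1.41, limma adjusted p = 0.0194). Among the inhibitors of angiogenesis, Serpinf1 fell from 370 ± 57.8 to 270.2 ± 1.99 FPKM (log2 fold change −0.44, limma adjusted p = 0.0455), and its call was lost under 4 of 12 other settings with all samples. Thbs1, the inhibitor with the highest level, was at 1155 ± 44.4 and 1017 ± 13.7 FPKM and was not called (limma adjusted p = 0.0565), although it passed under 4 of 12 other settings.

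Vegfa is a classic target of the hypoxia-inducible factors (HIF), which bind the core letters ACGTG or GCGTG of the hypoxia response element. Promoter windows of 300 bases, from 250 bases before to 50 bases after a RefSeq transcription start (GRCm38.p6, the build of mm10), were searched for both words on both strands. They were found for 7 of the 10 genes, with 9 windows, and Angpt2, Pecam1 and Cdh5 had no entry. A match was present in 5 of the 9 windows and for 5 genes, against 43.8% of all 32851 windows. The stretches around 1 match for each of these genes are shown, on the strand of the gene and with the letters of that 1 match in capitals, so that the genes with and without a called change can be compared.
Vegfa, chr17:46025365-46025393, 218 bases before an alternative start: aagccctggagtGCGTGcccacgtcagag
Vegfb, chr19:6987716-6987744, 81 bases before the start: ccggtggggagcGCGTGtttaggtcacat
Pgf, chr12:85177421-85177449, 124 bases before the start: gccctgcggggtCACGCgcactcaggtct
Kdr, chr5:75978528-75978556, 89 bases before the start: atccagtgggggGCGTGgccggacgcagg
Flt1, chr5:147726179-147726207, 184 bases before the start: ctagcgccaccgCACGCgcgctctggccc

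The other window of Vegfa, the other window of Pgf, and the windows of Vegfc and Tek held no match to either word. Pgf had 2 windows, and the start given for it above is that of the window with the match. CACGC is GCGTG read on the opposite strand. The Vegfa stretch also holds a second match, left in lower case, to ACGTG on the opposite strand (cacgt), 211 bases before the same start. Vegfb and Kdr also had 2 matches each, of which 1 is shown, and Flt1 had 1. Of the genes that rose, Vegfa thus had 2 matches and Vegfc had none. Vegfb, Kdr and Flt1, which were not called, had 2, 2 and 1. A match is a description of letters and not a binding site. The 7-base words that pair with the seed of either Zbp1 siRNA (CAGCCAA and TCCGGGA) were in the longest annotated 3′ UTR of 0 of the 10 genes, against 12.1% and 2.5% of the 10868 tested genes with such a UTR.

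Regulators of hypoxia and HIF targets moved in both directions. Of 22 listed, all were tested, 5 fell and 6 rose, with a median log2 fold change of 0.17. Adm, which is on this list too, had its largest change and fell (log2 fold change −1.41, limma adjusted p = 0.0194). Aldoa, a glycolytic HIF target, rose from 679 ± 2.30 to 852 ± 7.20 FPKM (log2 fold change 0.33, limma adjusted p = 0.00944). Epas1, which encodes HIF-2 alpha, fell from 7.48 ± 0.812 to 3.86 ± 0.215 FPKM (log2 fold change −0.80, limma adjusted p = 0.00999). Arnt, which encodes the shared partner of the HIF alpha subunits, was at 20.1 and 17.9 FPKM in siScr and at 11.9 and 12.1 FPKM in siZBP1, and it fell (log2 fold change −0.62, limma adjusted p = 0.00875). Hif1a was among the 6 genes that rose, at 110.6 and 110.5 FPKM in siScr and at 151.2 and 151.0 FPKM in siZBP1, and Ldha, another glycolytic target, was not called (limma adjusted p = 0.415).

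**Figure D4:**
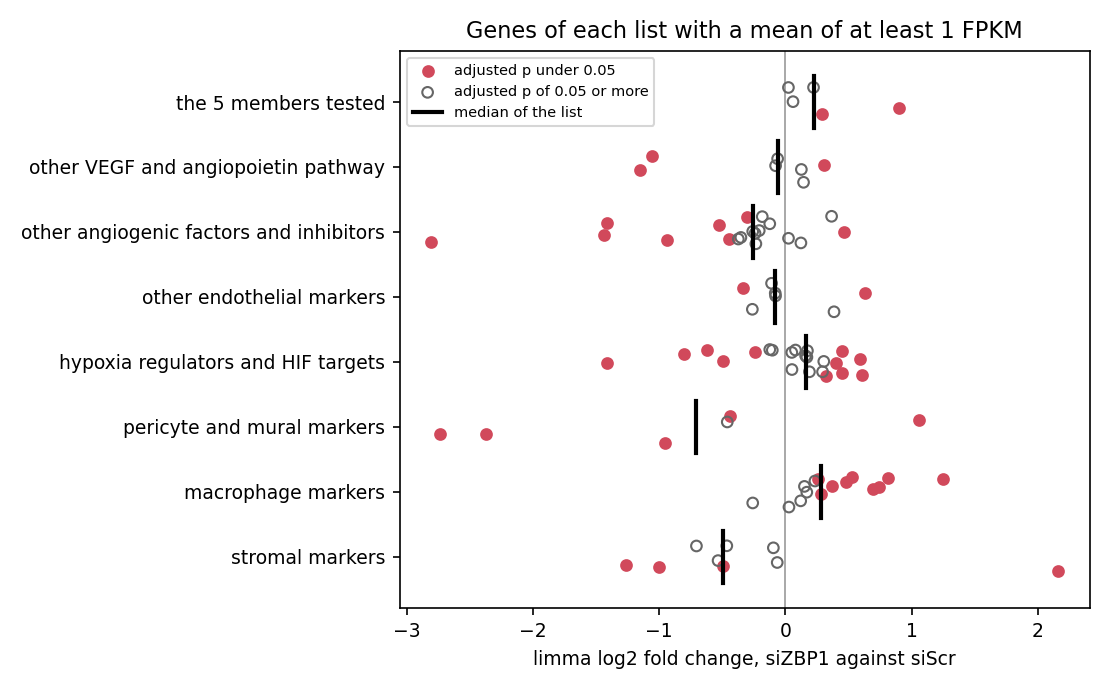
Log2 fold change in siZBP1 against siScr of every gene with a mean of at least 1 FPKM in each list, with filled points for a limma adjusted p under 0.05, open points for the others, and a bar at the median of the list. The 5 tested genes described here lie at or above 0, with Vegfc and Vegfa filled, while the pericyte and mural list has its median at −0.71 and the macrophage list at 0.28.

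The genes whose pattern over the 4 samples was closest to that of Vegfa and Kdr, the ligand and the receptor with the highest levels, were found by the Euclidean distance between profiles of log2(FPKM + 1) centred on their means. For Vegfa they were Actr6 (distance 0.014), Tmem87b (0.018) and Ldhb (0.019), and 342 genes lay within 0.1 of it. For Kdr they were Dst (0.012), Traf2 (0.023) and Minos1 (0.024), and 516 genes lay within 0.1. With 4 samples many profiles are alike, so these names are a description only.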

How the data were processed

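The series held 2 siScr and 2 siZBP1 libraries from mBMSCs. The submitters' processing notes name TopHat, Cufflinks and mm10, while the study's methods name TopHat and HTSeq for the extraction of expression values. The authors deposited FPKM per gene in 1 table of 24346 rows, with their group means, which equalled the means of the replicates. Read counts were not used here. Summed FPKM per sample ran from 477974 to 492166, and 6558 rows were at 0 in every sample. Depth and fragment numbers are estimates from the spacing of low FPKM values and the longest coding transcript in GENCODE M21, and carry no interval.

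FPKM plus a pseudocount of 1 was taken to log2, genes with a mean under 1 FPKM over the 4 samples were left out, and 11959 genes were fitted with limma 3.58.1 (R 4.3.3) with a variance trend. P-values were adjusted over all genes tested (Benjamini-Hochberg) and called under 0.05. An exact permutation test of 2 against 2 cannot give a p below 0.333. Fold changes on this scale understate the change of low genes. Ratios of group means used a 1.5-fold limit and no test. The script was tested on simulated data. Tables were handled with pandas 2.3.3 in Python 3.11.15, and figures were drawn with matplotlib 3.10.9.

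The members and gene lists were chosen with earlier results of these data known. The text names all 10 members, Zbp1, for each other list the 3 tested genes with the largest change and the 2 with the highest level, and the 3 genes closest in profile to Vegfa and Kdr. Tie1, Vwf, Flt4, Hif1a, Rgs5, Des, Abcc9, Kcnj8, C1qc, Adgre1, Ptprc, Fcgr1, Cd14, Ccr2 and Mertk were named in addition, after their values were seen. Eno1 shares a row with another symbol and was not counted. Alternatives changed the pseudocount, filter, normalisation, variance model and samples.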

Additional observations from a re-analysis of the deposited data

How the results depend on the processing

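The 2 members called higher became 1 with no filter on low genes, 1 with a filter at 5 FPKM, where Vegfc was not tested, and 1 with no variance trend. Leaving out 1 sample gave 0 to 1 members called higher, 22 to 1248 genes of the whole table called higher and 48 to 1467 called lower, and 0 to 20 and 3 to 23 genes of the other lists called higher and lower. The lowest counts came without siZBP1 replicate 1 (22 higher and 48 lower) or siZBP1 replicate 2 (32 and 113), whereas 713 and 938 were called without siScr replicate 1. Such fits leave 1 sample in an arm, which is assumed to vary like the other group. No member was called lower under any setting run. Of the 3 members over 1.5-fold lower by the ratio of means, 0 were left with 1 FPKM added to both means and 0 with a mean of at least 1 FPKM. All 3 have a mean under 1 FPKM, so the filter removed them whatever their change. Adding 1 FPKM shrinks ratios at such levels, so neither count says whether these ratios hold. Over all genes these settings gave 407 and 503 higher, and 937 and 1035 lower.

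Deviations from the group means of same-numbered samples had a correlation of −0.063 over the 11959 genes tested and 0.117 over those above 0 in all 4 samples. With 2 pairs, and no label tying the numbers, the samples were not taken as pairs. With the replicate block, 1465 genes were called higher and 1654 lower, Vegfa (limma adjusted p = 0.0220) and Vegfc (limma adjusted p = 0.0139) were still called and Kdr was not (limma adjusted p = 0.258). The sign of 2 log2 fold changes that were not called turned when 1 sample was left out: Flt1 ranged from −0.054 (without siZBP1 replicate 1) to 0.18 and Col1a2 from −0.20 to 0.011 (without siScr replicate 1). Of the 22 other named genes that were called, 250 of 262 values with all samples kept the call, 39 of 44 did without a siScr sample and 8 of 44 without a siZBP1 sample. The cause was not tested. Depth limits Tek, Pgf, Pecam1, Angpt2 and Cdh5 most, since each rested on at most 74 fragments a sample. The siScr values of Vegfc rested on about as few as the upper end of these, at 76 and 73 fragments.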
